A study of Mus musculus with 12 samples.

Results

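Genes that serve protein entry into the endoplasmic reticulum (ER) and the disposal of misfolded proteins from it are described here across 4 groups of mouse cell arrays. The 50 genes were taken as a named list in 2 classes, 27 of ER-associated degradation (ERAD) and 23 of protein import, and each was represented by the brightest transcript cluster that carried its symbol in the platform annotation. Of these, 48 were measured (25 of ERAD and 23 of import), out of 19505 named genes on the array, and each of the 48 had 1 transcript cluster. Signals of Ube2j2, Ube2g2 and the deleted gene Trp53 were not analysed here, though Ube2j2 entered the promoter search below. Ufd1l was matched through its current symbol, Ufd1.

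The samples were S100β-v-erbB/p53-/- TSC1 cells of the FVB-NJ strain, cultured in DMEM F-12 with B27 and exposed for 16 h. The groups of 3 arrays each were hypoxia with BFA, hypoxia with EHT-1864, hypoxia with DMSO and normoxia with DMSO, so that every group carried the v-erbB transgene under the S100β promoter and lacked p53. BFA (brefeldin A) blocks ARF activation and traffic between the ER and the Golgi, and EHT-1864 inhibits the GTPase Rac. EHT-1864 was used at 1 µM, while the labels give 1 µM for BFA in the protocol and 0.1 µM in a title. The design text names 3 independent cultures but does not tie array numbers to them, so the p-values measure the spread between these arrays, which may be partly technical.

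In ERAD, lectins and mannosidase-like proteins pick out misfolded glycoproteins, adaptor and channel proteins such as SEL1L and the derlins pass them to membrane ubiquitin ligases such as HRD1 (the product of Syvn1), and the p97 ATPase pulls them into the cytosol for the proteasome. In import, the signal recognition particle (SRP) brings ribosomes to its receptor on the ER, the Sec61 channel admits the growing chain with help from the TRAP complex, Sec62 and Sec63, and signal peptidase cuts off the signal peptide. Many genes of both classes are known targets of the unfolded protein response, in which the factors ATF6 and XBP1 bind ER stress elements in promoters.

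Promoters of 4 members are shown because they carry the elements searched for and belong to genes with some of the largest changes with BFA. The sequences run from 250 bases before to 50 bases after the gene start and were taken from RefSeq (GRCm38.p6, plus strand for all 4). They lie at chr10:75893148-75893447 (Derl3), chr8:94386179-94386478 (Herpud1), chr19:6046326-6046625 (Syvn1) and chr9:35210953-35211252 (Srpr). Capitals mark the complete element in Derl3, Herpud1 and Syvn1, and the CCACG elements in Srpr.
Derl3: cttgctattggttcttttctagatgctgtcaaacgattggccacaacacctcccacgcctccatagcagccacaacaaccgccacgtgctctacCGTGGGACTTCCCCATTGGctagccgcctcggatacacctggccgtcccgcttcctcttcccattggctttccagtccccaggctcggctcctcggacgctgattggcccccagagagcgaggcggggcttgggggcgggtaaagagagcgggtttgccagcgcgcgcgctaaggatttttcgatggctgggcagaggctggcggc
Herpud1: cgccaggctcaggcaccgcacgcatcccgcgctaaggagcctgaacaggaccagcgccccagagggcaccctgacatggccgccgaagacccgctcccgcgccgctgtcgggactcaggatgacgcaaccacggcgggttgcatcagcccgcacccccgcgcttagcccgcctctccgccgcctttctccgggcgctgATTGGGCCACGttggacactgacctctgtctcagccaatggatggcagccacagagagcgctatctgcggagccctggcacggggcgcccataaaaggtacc
Syvn1: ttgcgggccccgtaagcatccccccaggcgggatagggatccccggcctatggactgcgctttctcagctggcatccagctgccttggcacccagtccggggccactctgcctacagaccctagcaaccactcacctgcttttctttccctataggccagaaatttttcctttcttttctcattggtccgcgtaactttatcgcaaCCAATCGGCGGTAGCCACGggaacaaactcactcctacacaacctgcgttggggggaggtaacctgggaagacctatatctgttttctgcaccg
Srpr: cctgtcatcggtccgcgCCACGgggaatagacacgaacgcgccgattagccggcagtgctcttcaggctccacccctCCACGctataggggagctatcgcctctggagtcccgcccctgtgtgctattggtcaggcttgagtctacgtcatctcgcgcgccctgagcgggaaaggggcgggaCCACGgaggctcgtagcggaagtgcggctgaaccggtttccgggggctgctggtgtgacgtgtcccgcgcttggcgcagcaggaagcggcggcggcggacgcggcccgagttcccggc

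The elements were searched on both strands as ERSE (CCAAT, 9 bases, then CCACG), ERSE-II (ATTGG, 1 base, then CCACG), UPRE (TGACGTGG) and the short element CCACG on its own, which ERSE and ERSE-II contain and which UPRE contains on its other strand. Of the 50 listed members, 38 had a promoter entry (41 promoters). Derl3 held an ERSE on the minus strand at bases -156 to -138 and Syvn1 an ERSE on the plus strand at bases -44 to -26, against 39 of all 32851 promoters in the table (0.119%). Herpud1 held an ERSE-II on the plus strand at bases -52 to -42, an element present in 12 promoters of the table (0.0365%). Ube2j1 and Vcp each held a UPRE, which 222 promoters had (0.676%). CCACG was found in 24 of the 38 members (14 of 21 for ERAD and 10 of 17 for import), and in 10765 of all promoters (32.8%). A member counted if any of its promoters held the element, while the share over all counts single promoters, so the units differ. Srpr held 3 CCACG elements, and no complete element was matched in the 17 import promoters. A match describes letters in this window only, and binding was not measured.

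**Figure D1:**
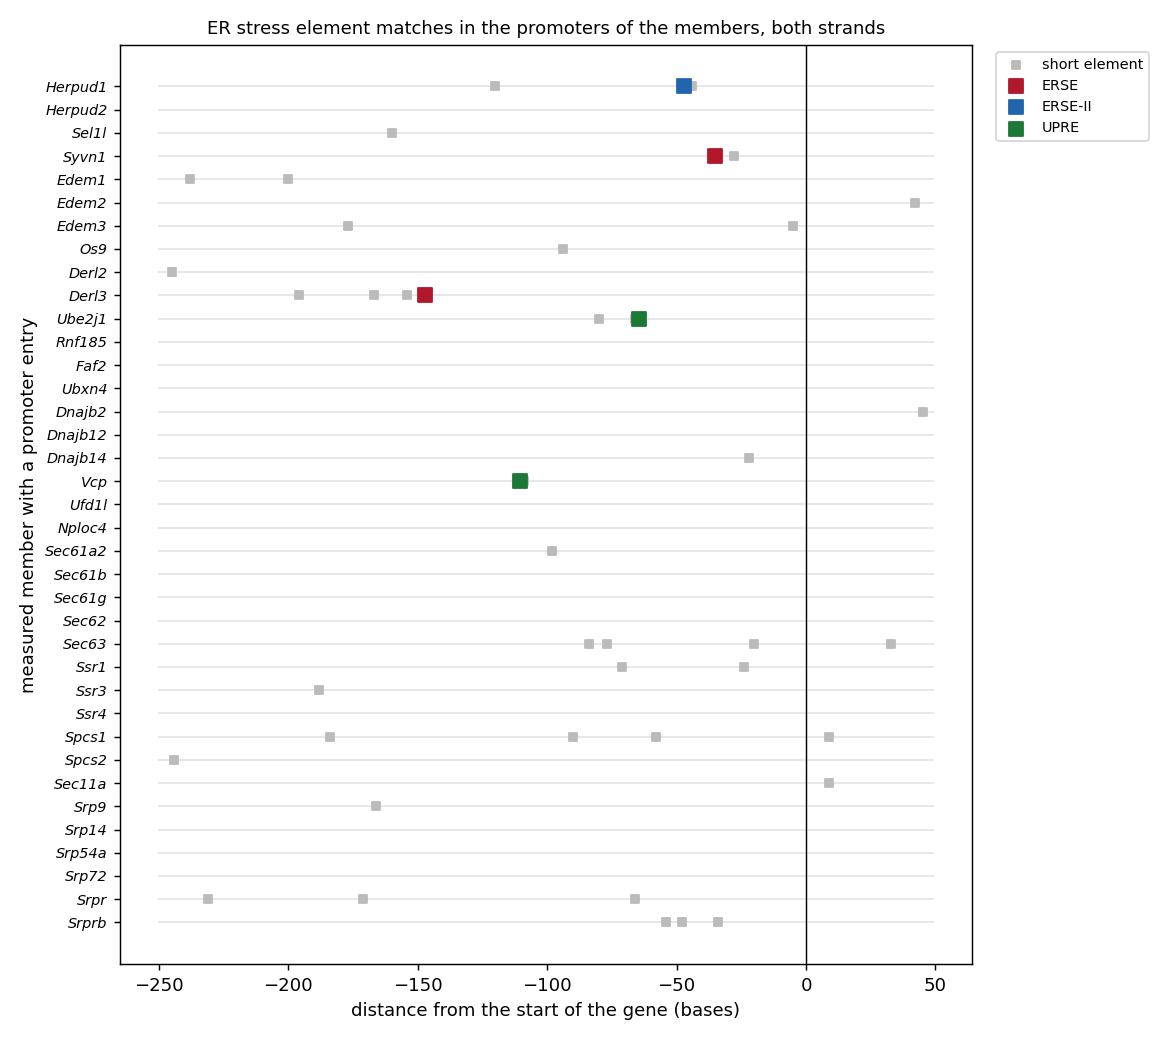
Positions of element matches in the promoters of the measured members with an entry, by distance from the gene start in bases (0 is the start). Grey squares are the short element CCACG, and red, blue and green squares are ERSE, ERSE-II and UPRE matches, which appear in Derl3, Syvn1, Herpud1, Ube2j1 and Vcp.

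Values are log2 signals as the authors deposited them after RMA, and a change is a difference of group means on that scale with its standard error, tested with limma over all 22206 transcript clusters with Benjamini-Hochberg adjustment at 0.05. The background floor of an array was the 95th percentile of its negative control probes. Arrays differed between groups in ways the members share. The floor averaged 6.49 ± 0.14 with BFA, 6.01 ± 0.13 with EHT-1864, 5.61 ± 0.02 with DMSO in hypoxia and 5.61 ± 0.02 in normoxia (SD, n = 3 each), and the share of clusters below it was 65.2% with BFA, 57.6% with EHT-1864, 51.7% with DMSO in hypoxia and 52.1% in normoxia. Within the BFA group, array 1 had the highest floor (6.65, against 6.37 and 6.45 on arrays 2 and 3). It also had the lowest median over the ERAD members (8.48, against 8.86 and 8.73), while the import medians lay closer (10.03, against 10.06 and 10.09). Sel1l, Os9, Vcp, Dnajb2 and Sec61a2 below were among the members lowest on array 1 within this group. Oligodendrocyte progenitor markers, of which 5 of 7 were measured, summed to linear signals of 799 to 865 with BFA, 2625 to 3106 with EHT-1864, 7076 to 7469 with DMSO in hypoxia and 7928 to 8436 in normoxia, and Nkx2-2 was below the floor on all 3 BFA arrays. The 4 microglia and macrophage and the 4 endothelial markers measured were below the floor on all arrays. Neural stem cell markers, 3 of 3 measured, summed to 1786 to 1981 with BFA, 5038 to 5252 with EHT-1864, 7010 to 7548 with DMSO in hypoxia and 7530 to 8107 in normoxia. Astrocyte markers, 5 of 5 measured, summed to 366 to 464 with BFA, 833 to 947 with EHT-1864, 1123 to 1206 with DMSO in hypoxia and 1075 to 1099 in normoxia. The 4 neuron markers summed to 199 to 243 with BFA, 238 to 291 with EHT-1864, 260 to 275 with DMSO in hypoxia and 227 to 259 in normoxia, and the 4 fibroblast markers to 143 to 181 with BFA, 121 to 129 with EHT-1864, 90.6 to 97.7 with DMSO in hypoxia and 101 to 116 in normoxia. In every group, 3 of the 4 fibroblast and 3 of the 5 astrocyte markers were below the floor on all 3 arrays. Of the 4 neuron markers, 3 were below it on all 3 arrays with BFA and 2 in each other group. These sums therefore include signal at background level. The part that the raised floor and the lower marker levels play in the results was not tested. Fewer cells of a type and less RNA per cell cannot be told apart in these bulk samples.

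BFA in hypoxia was the condition in which most members stood higher than with DMSO. Of the 25 ERAD members 13 rose and 1 fell (median change 0.40), and of the 23 import members 14 rose and 1 fell (median change 0.48). Called and at least 2-fold apart were 10 of all 48, among them the fall of Sec61a2 and Dnajb2, whose exact change is not known. The share of all clusters at this 2-fold cut was not counted. The rises included the derlin Derl3, the scaffold Herpud1, both HRD1 complex genes, both SRP receptor genes and 5 of 6 SRP genes, while none of the 5 signal peptidase genes passed the test in limma (0 of them at an unadjusted p under 0.05). Over all clusters 26.1% were called higher and 24.6% lower with BFA, with a median change of 0.11. Among the 10991 clusters above the floor on at least 3 arrays, 17.5% were higher and 44.8% lower, with a median change of -0.28. The background turned with the scaling: with each array's median subtracted 16 ERAD and 15 import members were higher and 1 of each lower, against 7017 clusters higher and 4931 lower, and with the median of the clusters above the floor subtracted 19 ERAD and 19 import members were higher and 0 ERAD and 1 import lower, against 9967 clusters higher and 3966 lower (71.5% of calls higher, against 51.5% as deposited). Without BFA array 1, the rises numbered 15 of ERAD and 14 of import.

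With EHT-1864 in hypoxia 18 members were called, against the 29 called with BFA. Of the ERAD members 3 rose and 8 fell (median change -0.03), and of the import members 3 rose and 4 fell (median change 0.14). The falls took in both HRD1 complex genes, 4 of 5 lectin and mannosidase-like genes, and the signal peptidase subunits Spcs3 and Spcs2. Over all clusters 13.0% were called higher and 17.4% lower, with a median change of 0.06. Among the clusters above the floor on at least 3 arrays, to which every measured member but Dnajb2 belongs, 14.4% were higher and 31.5% lower (median -0.14), and the ERAD members, at 12% higher and 32% lower, were close to that share. The split depended on scaling. After quantile normalization 6 ERAD members were called higher and 5 lower and 6 import members higher and 4 lower, with each array's median subtracted 5 ERAD members were higher and 6 lower and 5 import members higher and 3 lower, and with the median of the clusters above the floor subtracted 7 ERAD members were higher and 5 lower and 9 import members higher and 2 lower. The calls over all clusters turned with them, at 2978 higher and 3005 lower after quantile normalization, 3705 higher and 3430 lower with each array's median subtracted and 4654 higher and 3113 lower with the median of the clusters above the floor subtracted, against 2893 higher and 3874 lower in the values as deposited.

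Between hypoxia and normoxia few members were called, with a median change of 0.03 for ERAD and -0.01 for import. With DMSO in both, 1 ERAD member, Erlec1, rose and none fell, and 0 of the 23 import members were called by limma (1 higher and 2 lower at an unadjusted p under 0.05). Over all clusters 2.11% were called higher and 0.563% lower in hypoxia. Set directly against each other, BFA was above EHT-1864 for 16 ERAD and 14 import members and below it for 2 ERAD and 0 import members (0 import members were lower at an unadjusted p under 0.05 in limma), while 16.9% of all clusters were called higher and 19.6% lower. The median difference was 0.62 for ERAD, 0.49 for import and 0.06 over all clusters. With the median of the clusters above the floor subtracted, 19 ERAD and 15 import members were higher and 1 ERAD and 0 import members lower, against 5433 clusters higher and 3571 lower.

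**Figure D2:**
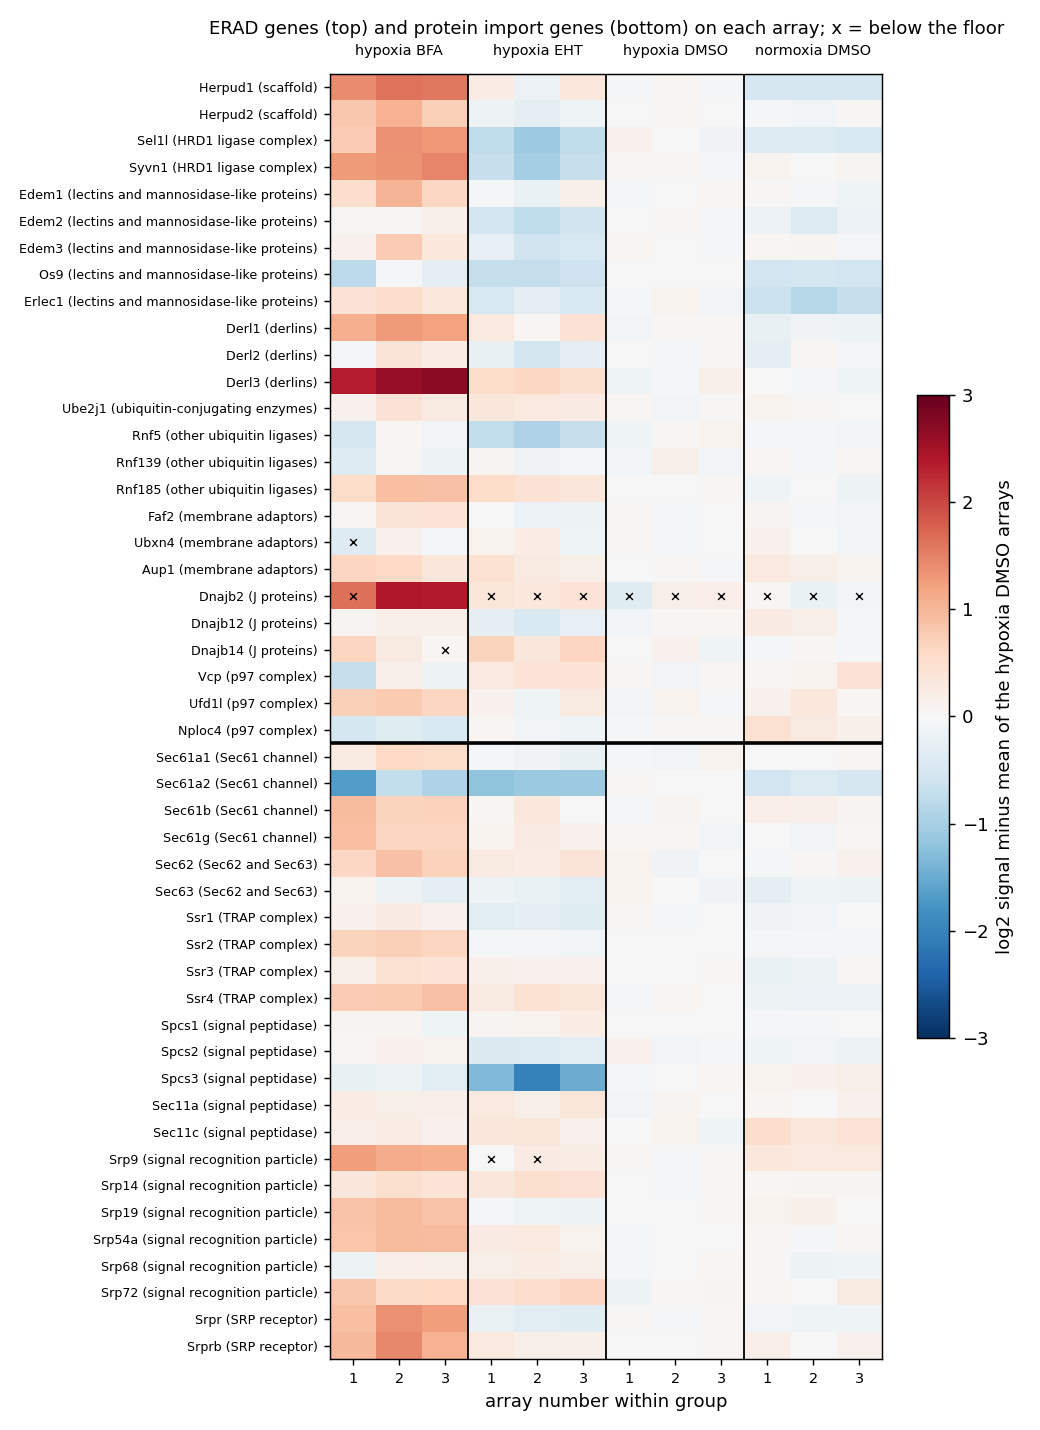
Log2 signal of the 48 measured members (rows, ERAD above the black line and import below it) on each of the 12 arrays (columns, by group), minus the mean of the 3 hypoxia DMSO arrays. Crosses mark arrays on which a member was below the floor, 10 of 12 for Dnajb2, and since these include its hypoxia DMSO arrays no colour in its row is an exact change. Derl3 is dark red with BFA, Spcs3 is the darkest blue with EHT-1864, and the normoxia columns are mostly pale, with Erlec1 among the exceptions.

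The scaffold proteins HERP1 and HERP2, encoded by Herpud1 and Herpud2, organise the HRD1 complex in the ER membrane. Herpud1 had log2 signals of 11.94, 12.15 and 12.11 with BFA, 10.74, 10.34 and 10.84 with EHT-1864, 10.49, 10.58 and 10.47 with DMSO in hypoxia and 10.005, 10.01 and 10.01 in normoxia. The 3 BFA arrays lay above all others, the EHT-1864 and hypoxia DMSO arrays overlapped, and all normoxia arrays were lowest. Herpud1 rose by 1.55 ± 0.14 (adjusted p 1.27e-06) with BFA, differed by 0.13 ± 0.14 (adjusted p 0.516) with EHT-1864 without passing, and stood 0.51 ± 0.14 (adjusted p 0.0686) above normoxia in hypoxia, the last short of the threshold although the arrays did not overlap. It was called in hypoxia under 8 of the 22 other processing settings tried. Herpud2 signals were 10.01, 10.24 and 9.92 with BFA, 9.04, 8.92 and 9.07 with EHT-1864, 9.19, 9.22 and 9.17 with DMSO in hypoxia and 9.15, 9.11 and 9.24 in normoxia, highest with BFA and just below both DMSO groups with EHT-1864. It rose by 0.86 ± 0.12 (adjusted p 5.53e-05) with BFA and differed by -0.18 ± 0.12 (adjusted p 0.251) with EHT-1864 without passing.

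SEL1L and the ubiquitin ligase HRD1 form the core of the main ERAD complex, and their genes moved in opposite directions with the compounds. Sel1l gave 8.48, 9.10 and 9.02 with BFA, 6.98, 6.65 and 6.96 with EHT-1864, 7.85, 7.71 and 7.62 with DMSO in hypoxia and 7.35, 7.31 and 7.28 in normoxia. Every BFA array was above and every EHT-1864 array below the 3 hypoxia DMSO arrays, and BFA array 1 was the lowest of its group. The change of Sel1l was 1.14 ± 0.16 (adjusted p 9.05e-05) with BFA and -0.87 ± 0.16 (adjusted p 0.00154) with EHT-1864, and BFA exceeded EHT-1864 by 2.00 ± 0.16 (adjusted p 9.07e-07). Syvn1 gave 9.14, 9.20 and 9.32 with BFA, 7.17, 6.83 and 7.16 with EHT-1864, 7.89, 7.88 and 7.79 with DMSO in hypoxia and 7.96, 7.87 and 7.94 in normoxia. BFA arrays were again above and EHT-1864 arrays below those with DMSO, while the hypoxia and normoxia DMSO arrays overlapped. For Syvn1 the change was 1.36 ± 0.12 (adjusted p 1.52e-06) with BFA and -0.80 ± 0.12 (adjusted p 0.000361) with EHT-1864, and its difference between the compounds, 2.17 ± 0.12 (adjusted p 5.49e-08), was the largest among the members. Both genes kept these calls under every other setting tried.

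The derlins are membrane proteins that help move substrates out of the ER, and of the 3 genes only Derl3 passed the test with both compounds. Derl3 read 8.17, 8.43 and 8.54 with BFA, 6.36, 6.44 and 6.31 with EHT-1864, 5.70, 5.76 and 6.0 with DMSO in hypoxia and 5.81, 5.76 and 5.69 in normoxia. BFA arrays were far above the rest, and the EHT-1864 arrays were also above all DMSO arrays, which lay just over the floor. Derl3 rose by 2.56 ± 0.13 (adjusted p 1.37e-08) with BFA and by 0.55 ± 0.13 (adjusted p 0.00647) with EHT-1864. The mean floor was also higher with BFA (6.49) and EHT-1864 (6.01) than with DMSO in hypoxia (5.61). The part of the raised floor in these rises was not tested. Derl1 read 10.47, 10.67 and 10.60 with BFA, 9.68, 9.45 and 9.83 with EHT-1864, 9.33, 9.43 and 9.44 with DMSO in hypoxia and 9.18, 9.30 and 9.25 in normoxia, which put BFA above the other groups and EHT-1864 just above hypoxia DMSO. Derl1 rose by 1.18 ± 0.12 (adjusted p 6.05e-06) with BFA, while its difference of 0.26 ± 0.12 (adjusted p 0.132) with EHT-1864 did not pass. Derl2 averaged 8.24 ± 0.21 with BFA, 7.70 ± 0.18 with EHT-1864, 8.06 ± 0.03 with DMSO in hypoxia and 7.97 ± 0.18 in normoxia (SD, n = 3 each), and the only comparison in which it passed was BFA against EHT-1864, at 0.54 ± 0.14 (adjusted p 0.00977).

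**Figure D3:**
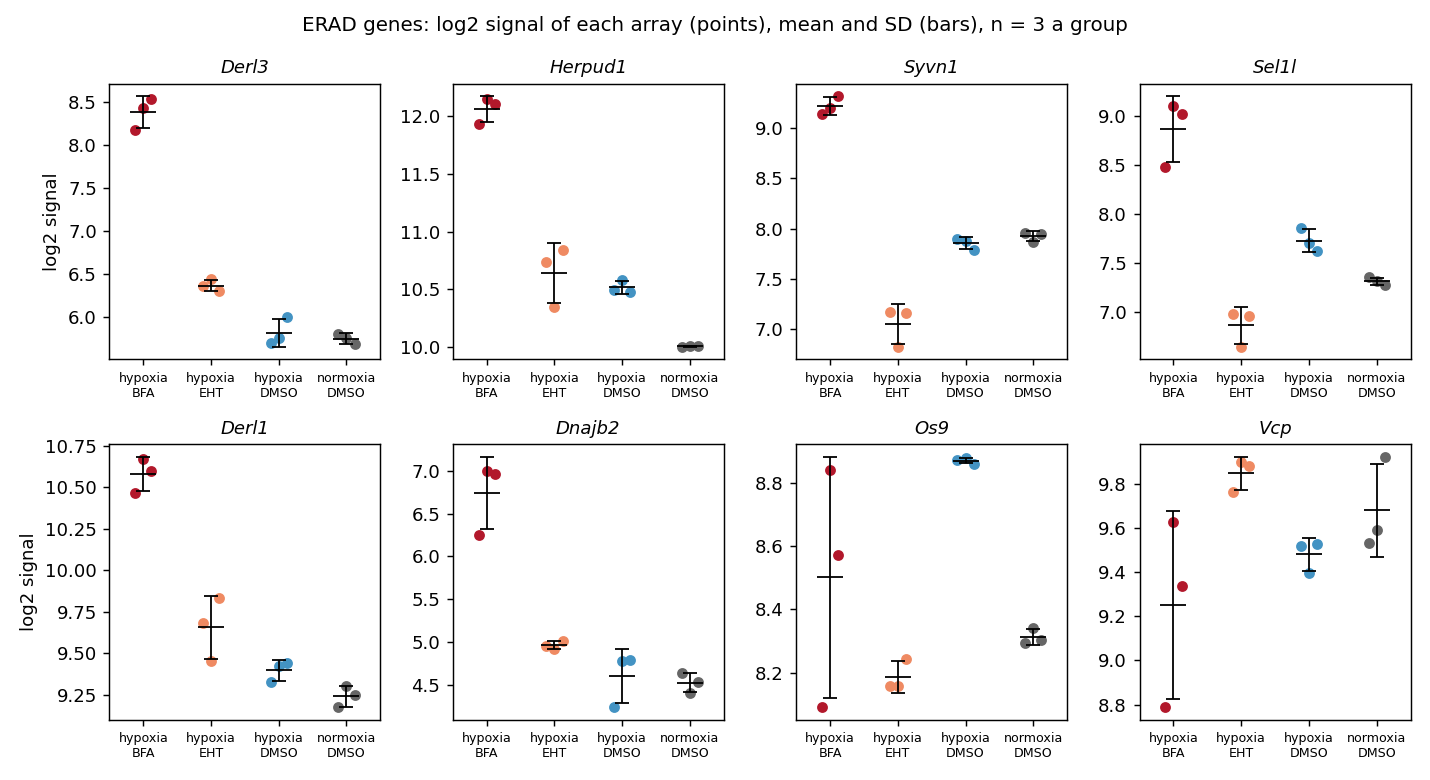
Log2 signal on each array for 8 ERAD members, 1 panel a gene with its own axis range; points are arrays, long bars the group mean and short bars the SD (n = 3 a group). BFA points stand highest for Derl3, Herpud1, Syvn1, Sel1l, Derl1 and Dnajb2, EHT-1864 points stand lowest for Syvn1 and Sel1l, and the BFA points of Os9 and Vcp spread widely. For Dnajb2 all points other than BFA arrays 2 and 3 are below the floor.

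EDEM1, EDEM2 and EDEM3 trim mannose from misfolded glycoproteins, and OS-9 and XTP3-B (the product of Erlec1) bind the trimmed sugars. Erlec1 signals were 9.20, 9.29 and 9.08 with BFA, 8.29, 8.46 and 8.31 with EHT-1864, 8.73, 8.87 and 8.69 with DMSO in hypoxia and 8.13, 7.90 and 8.04 in normoxia. All 4 groups were separate, with BFA highest, then hypoxia DMSO, then EHT-1864, then normoxia. Erlec1 was 0.74 ± 0.12 (adjusted p 0.00378) higher in hypoxia than in normoxia, and this call held under all other settings. It rose by 0.43 ± 0.12 (adjusted p 0.00862) with BFA and changed by -0.41 ± 0.12 (adjusted p 0.0184) with EHT-1864. The call with EHT-1864 was lost after quantile normalization and under 4 other settings (adjusted p up to 0.103).

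Os9 signals were 8.09, 8.84 and 8.57 with BFA, 8.16, 8.16 and 8.25 with EHT-1864, 8.87, 8.88 and 8.86 with DMSO in hypoxia and 8.29, 8.34 and 8.30 in normoxia. Hypoxia DMSO arrays were the highest group, EHT-1864 and normoxia arrays were lower, and the BFA arrays ran from below the normoxia arrays to just under those of hypoxia DMSO. Os9 fell by 0.68 ± 0.16 with EHT-1864 (adjusted p 0.0058), and its differences of -0.37 ± 0.16 (adjusted p 0.0662) with BFA and 0.56 ± 0.16 (adjusted p 0.0878) in hypoxia did not pass. Edem2 signals were 8.31, 8.30 and 8.43 with BFA, 7.70, 7.50 and 7.67 with EHT-1864, 8.27, 8.31 and 8.22 with DMSO in hypoxia and 8.09, 7.85 and 8.09 in normoxia, lowest with EHT-1864 and overlapping between BFA and hypoxia DMSO. Edem2 changed by -0.65 ± 0.12 (adjusted p 0.00114) with EHT-1864, and its difference of 0.08 ± 0.12 (adjusted p 0.59) with BFA did not pass. Edem1 averaged 8.42 ± 0.26 with BFA, 7.68 ± 0.18 with EHT-1864, 7.70 ± 0.07 with DMSO in hypoxia and 7.65 ± 0.08 in normoxia (SD, n = 3 each) and rose by 0.72 ± 0.14 (adjusted p 0.00119) with BFA. Edem3 averaged 8.50 ± 0.32 with BFA, 7.66 ± 0.18 with EHT-1864, 8.10 ± 0.06 with DMSO in hypoxia and 8.13 ± 0.06 in normoxia (SD, n = 3 each); its changes of 0.40 ± 0.16 (adjusted p 0.047) with BFA and -0.45 ± 0.16 (adjusted p 0.0461) with EHT-1864 sat at the threshold, and the call was lost under 11 of the 22 other settings for BFA and under 13 for EHT-1864.

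Among the ubiquitin enzymes and ligases, Ube2j1 encodes the conjugating enzyme UBC6e, and its signals were 9.14, 9.46 and 9.30 with BFA, 9.36, 9.32 and 9.25 with EHT-1864, 9.07, 8.93 and 9.05 with DMSO in hypoxia and 9.12, 9.06 and 9.04 in normoxia. Both compounds lay slightly above DMSO without passing, at 0.28 ± 0.11 (adjusted p 0.0574) for BFA and 0.29 ± 0.11 (adjusted p 0.0713) for EHT-1864, and the interval of the difference between the compounds ran from -0.26 to 0.24. Ube2j1 was called higher under 8 of the 22 other settings for BFA and under 9 for EHT-1864. The ligase gene Rnf5 gave 8.95, 9.51 and 9.38 with BFA, 8.71, 8.52 and 8.75 with EHT-1864, 9.32, 9.49 and 9.55 with DMSO in hypoxia and 9.39, 9.39 and 9.36 in normoxia. EHT-1864 arrays were below all others, and the BFA arrays overlapped with those of DMSO. Rnf5 changed by -0.79 ± 0.15 (adjusted p 0.00139) with EHT-1864, and its difference of -0.17 ± 0.15 (adjusted p 0.333) with BFA did not pass. Rnf185, which encodes a relative of RNF5, averaged 8.63 ± 0.20 with BFA, 8.31 ± 0.10 with EHT-1864, 7.86 ± 0.02 with DMSO in hypoxia and 7.77 ± 0.09 in normoxia (SD, n = 3 each) and rose by 0.77 ± 0.12 (adjusted p 0.000248) with BFA and by 0.45 ± 0.12 (adjusted p 0.0167) with EHT-1864, the second call lost without EHT-1864 array 1 or without hypoxia DMSO array 2. The ligase gene Rnf139 passed in no comparison.

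Of the membrane adaptors that recruit p97 or ubiquitin enzymes, Aup1 rose by 0.53 ± 0.12 (adjusted p 0.00343) with BFA. Faf2 differed by 0.40 ± 0.12 (adjusted p 0.0214) between BFA and EHT-1864 and passed in no other comparison. Ubxn4 passed in none, and 1 of its 3 BFA arrays lay under the floor. The J proteins assist Hsp70 chaperones in handing over substrates. Dnajb2 read 6.25, 7.0 and 6.97 with BFA, 4.95, 4.92 and 5.01 with EHT-1864, 4.23, 4.77 and 4.79 with DMSO in hypoxia and 4.63, 4.41 and 4.53 in normoxia. Only BFA arrays 2 and 3 exceeded the floor, and no array of the other groups did. The Dnajb2 mean of the 3 BFA arrays lay 2.18-fold above the floors of the hypoxia DMSO arrays and 1.66-fold above those of the EHT-1864 arrays. In limma on the measured values, the adjusted p was 2.27e-06 against DMSO and 1.39e-05 against EHT-1864. BFA array 1 entered at its measured value below its floor. The mean floor was itself higher with BFA (6.49) than with DMSO in hypoxia (5.61) or EHT-1864 (6.01). Neither fold is therefore a strict lower bound, and the part played by the raised floor was not tested. Dnajb12 changed by -0.34 ± 0.12 (adjusted p 0.0464) and Dnajb14 by 0.54 ± 0.16 (adjusted p 0.019) with EHT-1864, and both calls were lost when single arrays were left out.

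The p97 ATPase (Vcp) works with the cofactors UFD1 and NPL4 (Ufd1l and Nploc4). With BFA, Ufd1l rose, Nploc4 fell and Vcp did not pass. Vcp gave 8.79, 9.63 and 9.34 with BFA, 9.76, 9.90 and 9.88 with EHT-1864, 9.52, 9.39 and 9.53 with DMSO in hypoxia and 9.53, 9.59 and 9.92 in normoxia. BFA arrays spread widely and overlapped with DMSO, while the EHT-1864 arrays were above hypoxia DMSO. Neither compound passed against DMSO, at -0.23 ± 0.18 (adjusted p 0.311) for BFA and 0.37 ± 0.18 (adjusted p 0.152) for EHT-1864. The difference between the compounds, -0.60 ± 0.18 (adjusted p 0.0216), was lost under 5 of the 22 other settings. These were quantile normalization, the fit of only the 6 arrays compared, and leaving out BFA array 1 or EHT-1864 array 2 or 3. Ufd1l averaged 9.20 ± 0.08 with BFA, 8.58 ± 0.20 with EHT-1864, 8.49 ± 0.09 with DMSO in hypoxia and 8.66 ± 0.14 in normoxia (SD, n = 3 each) and rose by 0.71 ± 0.13 (adjusted p 0.00065) with BFA. Nploc4 averaged 10.17 ± 0.08 with BFA, 10.58 ± 0.09 with EHT-1864, 10.62 ± 0.06 with DMSO in hypoxia and 10.91 ± 0.16 in normoxia (SD, n = 3 each) and changed by -0.45 ± 0.12 (adjusted p 0.00649) with BFA, a call lost after quantile normalization and with the median of the clusters above the floor subtracted.

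On the import side, SRP54 binds the signal peptide within the SRP, SRP9 and SRP14 pause translation, and SRP19, SRP68 and SRP72 hold the particle together. Srp54a read 9.89, 9.99 and 9.98 with BFA, 9.29, 9.33 and 9.14 with EHT-1864, 9.02, 9.07 and 9.05 with DMSO in hypoxia and 9.07, 9.0 and 9.10 in normoxia, with BFA above all other arrays. It rose by 0.91 ± 0.11 (adjusted p 1.58e-05) with BFA and differed by 0.21 ± 0.11 (adjusted p 0.152) with EHT-1864. Near-identical copies exist in mouse, so probes may pick up more than one of them. The clusters of Srp54b and Srp54c were also higher with BFA (a change of 0.99 for Srp54b and 0.78 for Srp54c). Srp19 read 8.93, 9.03 and 8.94 with BFA, 8.01, 7.95 and 7.91 with EHT-1864, 8.06, 8.07 and 8.10 with DMSO in hypoxia and 8.19, 8.22 and 8.07 in normoxia. BFA arrays stood well above the rest, and EHT-1864 arrays were the lowest group. Srp19 rose by 0.89 ± 0.10 (adjusted p 1.54e-05) with BFA and differed by -0.12 ± 0.10 (adjusted p 0.415) with EHT-1864.

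Srp9 signals were 6.97, 6.84 and 6.80 with BFA, 5.73, 5.96 and 5.94 with EHT-1864, 5.75, 5.67 and 5.75 with DMSO in hypoxia and 6.04, 6.0 and 6.01 in normoxia. BFA arrays were highest although close to their own raised floor, and only 1 of 3 EHT-1864 arrays was above its floor. Srp9 rose by 1.15 ± 0.11 (adjusted p 3.11e-06) with BFA. Srp14 signals were 8.74, 8.90 and 8.83 with BFA, 8.74, 8.90 and 8.85 with EHT-1864, 8.43, 8.37 and 8.44 with DMSO in hypoxia and 8.47, 8.51 and 8.49 in normoxia. Both compound groups lay above DMSO, and their arrays interleaved. Srp14 rose by 0.41 ± 0.10 (adjusted p 0.0055) with BFA and by 0.42 ± 0.10 (adjusted p 0.00965) with EHT-1864, and the interval of the difference between them ran from -0.23 to 0.22. Srp72 signals were 10.71, 10.49 and 10.49 with BFA, 10.33, 10.44 and 10.55 with EHT-1864, 9.75, 9.97 and 9.99 with DMSO in hypoxia and 9.95, 9.91 and 10.18 in normoxia. It likewise rose with both, by 0.66 ± 0.13 (adjusted p 0.00094) with BFA and by 0.54 ± 0.13 (adjusted p 0.00687) with EHT-1864. Srp68 averaged 9.07 ± 0.20 with BFA, 9.19 ± 0.02 with EHT-1864, 9.0 ± 0.06 with DMSO in hypoxia and 8.91 ± 0.10 in normoxia (SD, n = 3 each) and passed in no comparison.

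The SRP receptor has an alpha subunit (Srpr) that docks the SRP and a beta subunit (Srprb) that anchors it in the membrane. Srpr gave 10.16, 10.65 and 10.53 with BFA, 9.07, 8.92 and 8.91 with EHT-1864, 9.30, 9.21 and 9.29 with DMSO in hypoxia and 9.19, 9.13 and 9.15 in normoxia. BFA arrays were highest, and EHT-1864 arrays lay below all DMSO arrays. Srpr rose by 1.18 ± 0.13 (adjusted p 1.07e-05) with BFA, its difference of -0.30 ± 0.13 (adjusted p 0.103) with EHT-1864 did not pass, and the compounds were 1.48 ± 0.13 (adjusted p 1.86e-06) apart. Srprb gave 10.16, 10.61 and 10.23 with BFA, 9.47, 9.35 and 9.32 with EHT-1864, 9.17, 9.16 and 9.21 with DMSO in hypoxia and 9.39, 9.20 and 9.32 in normoxia, with BFA again above all others. It rose by 1.15 ± 0.13 (adjusted p 1.29e-05) with BFA and differed by 0.20 ± 0.13 (adjusted p 0.268) with EHT-1864.

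The Sec61 channel is built from an alpha, a beta and a gamma subunit, and its 2 alpha genes moved in opposite directions with BFA. Sec61a1, the widely expressed alpha gene, gave 11.69, 12.01 and 11.97 with BFA, 11.35, 11.30 and 11.20 with EHT-1864, 11.38, 11.33 and 11.52 with DMSO in hypoxia and 11.40, 11.42 and 11.46 in normoxia. BFA arrays were highest, and EHT-1864 arrays overlapped with hypoxia DMSO. Sec61a1 rose by 0.48 ± 0.12 (adjusted p 0.0049) with BFA and differed by -0.13 ± 0.12 (adjusted p 0.457) with EHT-1864. Sec61a2 gave 6.80, 7.75 and 7.57 with BFA, 7.29, 7.38 and 7.40 with EHT-1864, 8.51, 8.47 and 8.47 with DMSO in hypoxia and 7.92, 8.08 and 7.97 in normoxia. Both compounds were below every DMSO array, BFA array 1 lowest of all, and hypoxia DMSO was above normoxia. Sec61a2 fell by 1.11 ± 0.19 with BFA (adjusted p 0.000401) and by 1.13 ± 0.19 with EHT-1864 (adjusted p 8.0e-04), and the 2 compounds differed by 0.02 ± 0.19 (adjusted p 0.95). Without BFA array 1 its change with BFA was -0.82. The beta and gamma genes rose with BFA, Sec61b by 0.77 ± 0.12 (adjusted p 0.000245) and Sec61g by 0.73 ± 0.12 (adjusted p 0.000196).

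SEC62 and SEC63 join the channel for substrates that enter after translation. Sec62 read 10.90, 11.18 and 10.97 with BFA, 10.56, 10.50 and 10.68 with EHT-1864, 10.40, 10.18 and 10.27 with DMSO in hypoxia and 10.23, 10.32 and 10.42 in normoxia, highest with BFA and then EHT-1864. It rose by 0.73 ± 0.12 (adjusted p 0.000275) with BFA and differed by 0.30 ± 0.12 (adjusted p 0.0816) with EHT-1864. Sec63 read 9.09, 8.82 and 8.72 with BFA, 8.84, 8.77 and 8.66 with EHT-1864, 9.08, 8.98 and 8.88 with DMSO in hypoxia and 8.69, 8.85 and 8.83 in normoxia, and the compound groups overlapped. Sec63 passed in no comparison, with -0.11 ± 0.13 (adjusted p 0.497) for BFA and -0.22 ± 0.13 (adjusted p 0.197) for EHT-1864.

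The TRAP complex, encoded by Ssr1 to Ssr4, sits beside the channel and aids the entry of some signal peptides. Ssr2 read 11.85, 11.89 and 11.82 with BFA, 11.12, 11.12 and 11.09 with EHT-1864, 11.19, 11.17 and 11.17 with DMSO in hypoxia and 11.15, 11.13 and 11.14 in normoxia. BFA arrays were above all others, and the arrays of each group lay close together. Ssr2 rose by 0.68 ± 0.10 (adjusted p 0.000101) with BFA and differed by -0.06 ± 0.10 (adjusted p 0.66) with EHT-1864. Ssr4 read 10.04, 10.06 and 10.14 with BFA, 9.55, 9.73 and 9.62 with EHT-1864, 9.20, 9.33 and 9.27 with DMSO in hypoxia and 9.11, 9.08 and 9.09 in normoxia, ordered BFA, EHT-1864, hypoxia DMSO and normoxia without overlap. Ssr4 rose by 0.81 ± 0.11 (adjusted p 3.98e-05) with BFA and by 0.37 ± 0.11 (adjusted p 0.0192) with EHT-1864, the second call lost without EHT-1864 array 2 or without hypoxia DMSO array 1 or 3. Ssr1 read 10.61, 10.74 and 10.60 with BFA, 10.13, 10.22 and 10.12 with EHT-1864, 10.52, 10.43 and 10.49 with DMSO in hypoxia and 10.38, 10.40 and 10.47 in normoxia, lowest with EHT-1864. It changed by -0.33 ± 0.10 (adjusted p 0.0309) with EHT-1864, a call lost under 8 of the 22 other settings, and its difference of 0.17 ± 0.10 (adjusted p 0.185) with BFA did not pass. Ssr3 averaged 10.65 ± 0.15 with BFA, 10.44 ± 0.02 with EHT-1864, 10.30 ± 0.03 with DMSO in hypoxia and 10.19 ± 0.12 in normoxia (SD, n = 3 each) and rose by 0.35 ± 0.12 (adjusted p 0.022) with BFA, a call lost under 5 of the 22 other settings.

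Signal peptidase has the catalytic subunits SEC11A and SEC11C and the accessory subunits SPCS1, SPCS2 and SPCS3, and 2 of its 5 genes fell with EHT-1864 and none rose. Spcs3 gave 8.0, 8.07 and 7.89 with BFA, 6.91, 6.20 and 6.73 with EHT-1864, 8.17, 8.20 and 8.29 with DMSO in hypoxia and 8.33, 8.36 and 8.39 in normoxia. EHT-1864 arrays were far below every other array, the farthest fall among the members with this compound, and BFA arrays were only slightly below DMSO. Spcs3 changed by -1.61 ± 0.16 (adjusted p 1.40e-05) with EHT-1864, and its difference of -0.23 ± 0.16 (adjusted p 0.232) with BFA did not pass. Spcs2 gave 10.03, 10.12 and 10.09 with BFA, 9.54, 9.57 and 9.64 with EHT-1864, 10.11, 9.91 and 9.94 with DMSO in hypoxia and 9.85, 9.91 and 9.83 in normoxia, and again EHT-1864 was lowest. Spcs2 changed by -0.40 ± 0.11 (adjusted p 0.0128) with EHT-1864, a call lost without hypoxia DMSO array 1 and with the median of the clusters above the floor subtracted.

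Spcs1 signals were 9.97, 9.97 and 9.77 with BFA, 9.96, 9.999 and 10.11 with EHT-1864, 9.90, 9.89 and 9.88 with DMSO in hypoxia and 9.85, 9.83 and 9.88 in normoxia, and the BFA arrays overlapped with both DMSO groups. Spcs1 differed by 0.01 ± 0.11 (adjusted p 0.935) with BFA and 0.13 ± 0.11 (adjusted p 0.384) with EHT-1864. Sec11a signals were 10.43, 10.39 and 10.40 with BFA, 10.49, 10.37 and 10.56 with EHT-1864, 10.13, 10.28 and 10.20 with DMSO in hypoxia and 10.25, 10.22 and 10.33 in normoxia, slightly above DMSO with both compounds. Its differences of 0.20 ± 0.11 (adjusted p 0.126) with BFA and 0.27 ± 0.11 (adjusted p 0.0711) with EHT-1864 did not pass. Sec11c averaged 8.31 ± 0.05 with BFA, 8.41 ± 0.13 with EHT-1864, 8.13 ± 0.13 with DMSO in hypoxia and 8.55 ± 0.11 in normoxia (SD, n = 3 each), and its difference of -0.42 ± 0.12 (adjusted p 0.0925) in hypoxia against normoxia did not pass although the arrays did not overlap.

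**Figure D4:**
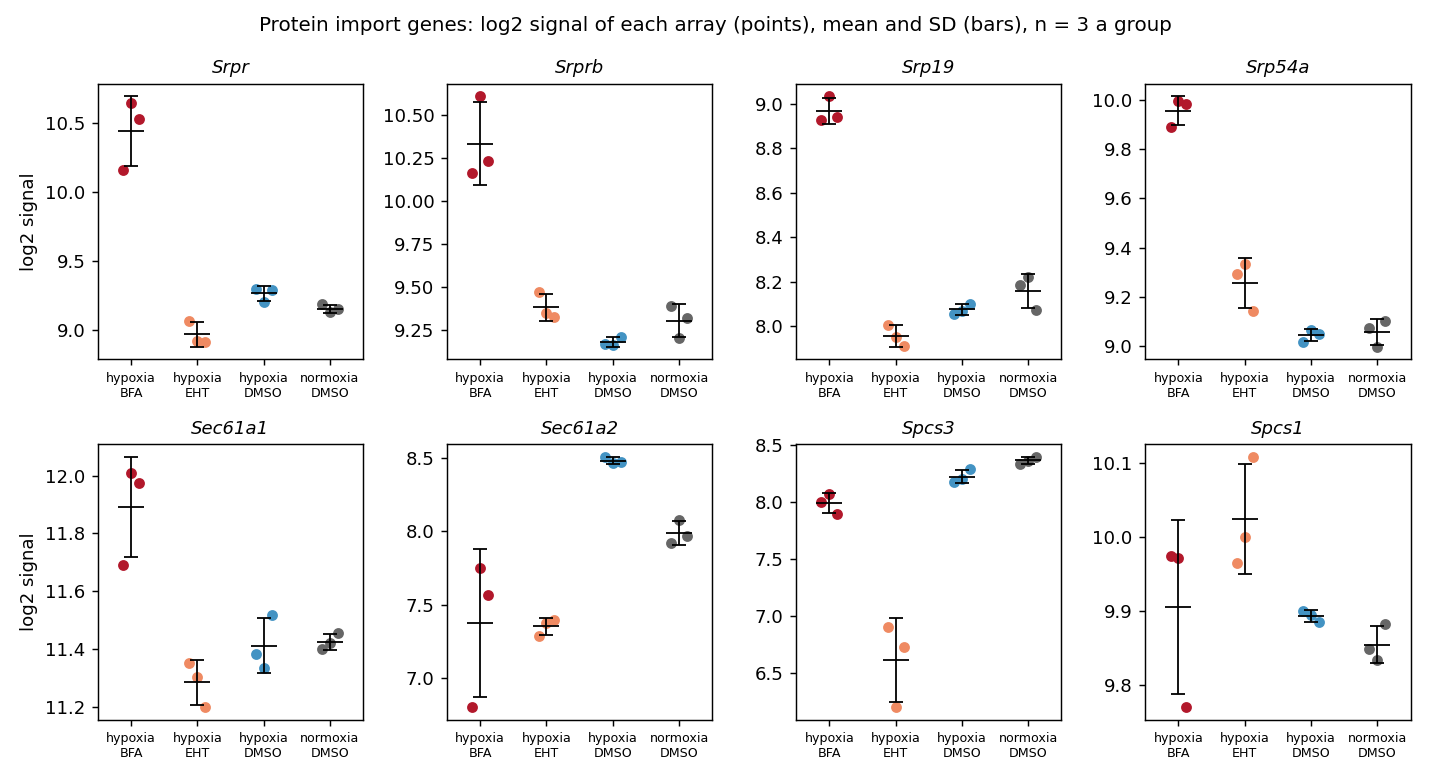
Log2 signal on each array for 8 import members, 1 panel a gene with its own axis range; points are arrays, long bars the group mean and short bars the SD (n = 3 a group). BFA stands highest for Srpr, Srprb, Srp19, Srp54a and Sec61a1, both compounds are below DMSO for Sec61a2, EHT-1864 is lowest for Spcs3, and the groups of Spcs1 lie close together.

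Side by side, the calls of the 48 members with the 2 compounds fell into a few patterns, read with the same 3 hypoxia DMSO arrays as control of both. The share of all clusters in each joint pattern was not counted, so these patterns cannot be read as a trait of either class. Sel1l, Syvn1, Erlec1 and Edem3 were higher with BFA and lower with EHT-1864, all 4 from ERAD. Derl3, Rnf185, Srp14, Srp72 and Ssr4 were higher with both, and Sec61a2 was lower with both. Another 18 members were higher with BFA and did not pass with EHT-1864, and 7 were lower with EHT-1864 and did not pass with BFA (Dnajb12, Edem2, Os9, Rnf5, Spcs2, Spcs3 and Ssr1). The difference between the compounds itself passed for 32 members, 18 of ERAD and 14 of import. Rnf139, Sec11a, Sec11c, Sec63, Spcs1, Srp68, Ube2j1 and Ubxn4 passed in none of the 4 comparisons.

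**Figure D5:**
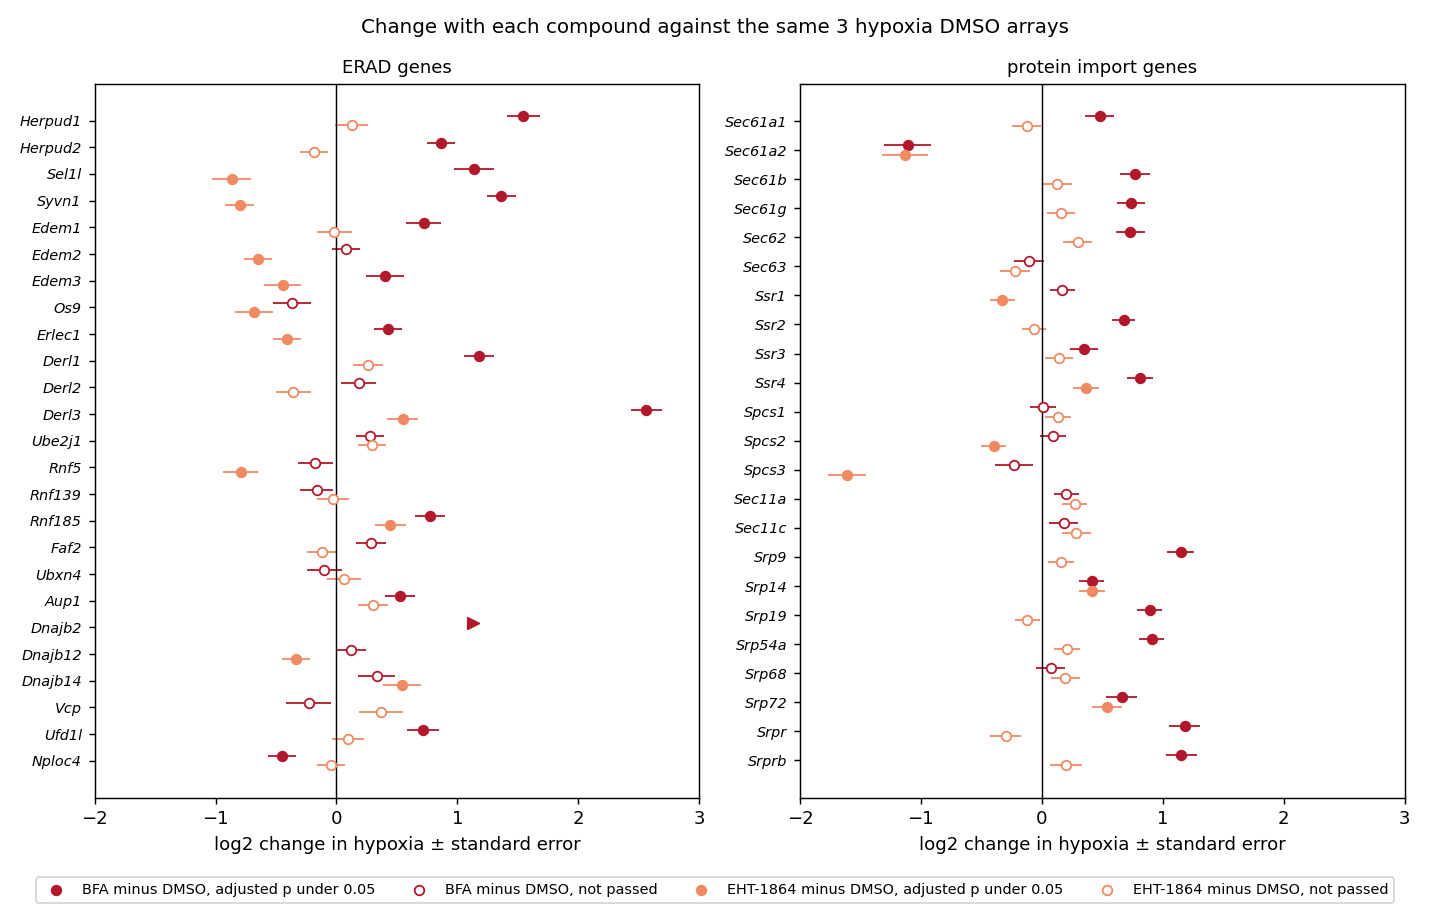
Log2 change (x axis, point) with its standard error (bar) for each member with BFA (dark red) and with EHT-1864 (orange), each against the same 3 hypoxia DMSO arrays; filled points passed an adjusted p of 0.05 and open points did not. Dnajb2 was below the floor on all hypoxia DMSO and EHT-1864 arrays and has no EHT-1864 point. Its triangle (no bar) is the log2 distance of the BFA mean above the hypoxia DMSO floors, which is not a strict lower bound. BFA points lie mostly right of 0, with Derl3 at 2.56, and the EHT-1864 points of Spcs3, Sec61a2, Sel1l and Syvn1 lie farthest left.

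Promoter elements can be set beside these values. The 3 members with an ERSE or ERSE-II were Derl3, Syvn1 and Herpud1. Derl3 changed by 2.56 with BFA and 0.55 with EHT-1864, Syvn1 by 1.36 with BFA and -0.80 with EHT-1864, and Herpud1 by 1.55 with BFA, while its 0.13 with EHT-1864 did not pass. Neither member with a UPRE passed with BFA, Ube2j1 at 0.28 and Vcp at -0.23. Under the 22 other settings, Ube2j1 was called with BFA in 8 and Vcp in none. Srpr and Srprb, with 3 CCACG elements each, rose with BFA by 1.18 for Srpr and 1.15 for Srprb. Spcs1 and Sec63, with 4 each, did not pass with BFA (0.01 for Spcs1 and -0.11 for Sec63). Transcripts of 6 ER stress genes outside the list can also be read, although signalling itself was not measured. All 6 were higher with BFA, while 2 were higher and 2 lower with EHT-1864 (median 0.02). Between hypoxia and normoxia with DMSO, 3 were already higher and 0 lower (median 0.54), with Ddit3 changing most (1.74). The chaperone gene Hspa5 changed by 1.27 with BFA and -0.65 with EHT-1864, and the factor gene Xbp1 by 0.89 with BFA and -0.92 with EHT-1864. Both moved up with BFA and down with EHT-1864, as Sel1l and Syvn1 did. Dnajb9, a BiP cofactor gene, rose with both (2.35 with BFA and 0.43 with EHT-1864), as did Ddit3 (2.49 with BFA and 1.66 with EHT-1864). Atf4 and Atf6 rose with BFA (by 1.09 for Atf4 and 1.01 for Atf6) and did not pass with EHT-1864 (0.15 for Atf4 and -0.11 for Atf6).

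Other genes of the same pathways were counted apart from the members. Over all clusters 26.1% were called higher and 24.6% lower with BFA, and 13.0% higher and 17.4% lower with EHT-1864. Among the clusters above the floor on at least 3 arrays, these shares were 17.5% and 44.8% with BFA and 14.4% and 31.5% with EHT-1864. In hypoxia 2.11% of all clusters were higher and 0.563% lower. Of 37 further ERAD genes 34 were measured, and 14 were higher and 6 lower with BFA (median change 0.16), 5 higher and 10 lower with EHT-1864 (median -0.17), and 1 higher and 1 lower in hypoxia. As shares of the 34, these were 41.2% and 17.6% with BFA and 14.7% and 29.4% with EHT-1864, the latter close to the clusters above the floor. The calls with EHT-1864 include a rise of Trim13 and a fall of Txndc11, both below the floor on all arrays of every group. Selenos, Selenok and Sdf2l1, whose products act in or near the HRD1 complex or with BiP, rose with BFA (by 1.37 for Selenos, 1.17 for Selenok and 1.33 for Sdf2l1), while Jkamp fell by 1.00. With EHT-1864, the change was -1.28 for Erlin2, -1.15 for Dnajc10 and -1.08 for Fam8a1. Of 26 further import genes 25 were measured, and 10 were higher and 10 lower with BFA (median 0.02), 6 higher and 6 lower with EHT-1864 (median -0.14), and none was called in hypoxia by limma (1 higher and 5 lower at an unadjusted p under 0.05). As shares of the 25, these were 40% in each direction with BFA and 24% in each direction with EHT-1864. Tram1, which encodes a translocon-associated membrane protein, changed by -0.97 with EHT-1864, and its difference of 0.20 with BFA did not pass.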

How the data were processed

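RNA of the 12 samples was hybridised to Clarion S mouse arrays after Trizol extraction and WT Plus labelling, per the labels' protocols. The deposited values were log2 signals, made by the authors with RMA in Affymetrix Expression Console per the submitters' processing notes. Because RMA scales arrays to one another, differences in total RNA cannot be seen. The deposited values still differed in spread (SD over clusters 2.22 to 2.52 an array). Upstream versions and the build are not given in the sources used here. Of 28846 rows, 6640 were controls and were left out, and all of the other 22206 transcript clusters were tested without a filter.

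Clusters were named through the platform annotation (19572 with 1 symbol), updated by Entrez number. All 12 arrays were fitted with limma 3.58.1 (R 4.3.3; lmFit and eBayes, residual df 8, prior df 4.87), with Benjamini-Hochberg adjustment over all clusters of a comparison and a threshold of 0.05. Where a member was below the floor (95th percentile of negative controls) in a whole group, the mean of the other group is set against that floor in place of a change. Depth has no direct measure on arrays, and the number of arrays limits the precision.

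The members, the lists of further ERAD and import genes and the marker lists were chosen with earlier results of these data known. Values on every array are given for the 6 members of each class with the largest change among those called without overlap in each comparison, and for 1 core member of each complex. Other fits changed the normalization, the filter, the variance model, array weights, the arrays in the fit, and the block on array number. Same-numbered arrays of different groups did not deviate together (18 pairs, r -0.21 to 0.24), so the numbers were not taken as pairs.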

Additional observations from a re-analysis of the deposited data

How the results depend on the processing

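Each comparison of the 48 members was recomputed under 22 other settings, 12 of which left out 1 array (21 for Dnajb2, which the floor filter removed), and no called change turned its direction under any of them. Taking the dimmest cluster of a gene repeated the main fit, since each member had 1 cluster. The filters, the variance model, the replicate block and the fit of only the 6 arrays compared keep the change itself. So does leaving out an array of a group not compared. Under these settings a direction could not turn. Of the values, 4009 stayed on their side of the threshold, 84 lost a call and 127 gained one. The calls that held under every setting were 26 of 29 with BFA, 10 of 18 with EHT-1864, 28 of 32 between the compounds and 1 of 1 in hypoxia. With BFA, the exceptions were Edem3, Ssr3 and Nploc4. With EHT-1864, they were Edem3, Erlec1, Rnf185, Dnajb12, Dnajb14, Ssr1, Ssr4 and Spcs2. Between the compounds, they were Faf2, Vcp, Nploc4 and Sec62. For hypoxia against normoxia, the ERAD count was 2 after quantile normalization and without the dimmest 25% of clusters, 3 with clusters above the floor on at least 3 arrays and with only the 6 arrays compared, and 4 with trend and robust variance or with array weights. The import count there was 1 with the floor filter, with trend and robust variance and with the 6 arrays, and 3 with array weights. The count over all clusters was 1247 with the floor filter, 1221 with trend and robust variance, 2258 with array weights and 1234 with the 6 arrays, against 593. With BFA the count over all clusters was 7423 with the floor filter, which tests fewer clusters, against 11269. With EHT-1864 the import count was 11 with the floor filter, with trend and robust variance and with the median of the clusters above the floor subtracted, against 7. The last scaling was chosen after seeing the data and moved the median change by 0.25 with BFA, 0.12 with EHT-1864 and 0.13 between the compounds. It and quantile normalization gave 19 higher and 0 lower ERAD members with BFA. The cause of these moves was otherwise not tested. Leaving out 1 array at a time, the counts for hypoxia ran from 1 to 3 for ERAD, 0 to 1 for import and 254 to 898 for all clusters. They ran from 13 to 16, 14 to 15 and 9538 to 11394 with BFA, from 7 to 14, 4 to 8 and 4986 to 7806 with EHT-1864, and from 16 to 19, 14 to 14 and 6900 to 8280 between the compounds. The ERAD count with EHT-1864 was lowest, at 7, without EHT-1864 array 1 or 3 or hypoxia DMSO array 2, and the import count, at 4, without hypoxia DMSO array 1. With the array number as a replicate block, ERAD, import and all clusters had counts of 1, 0 and 442 in hypoxia, 13, 15 and 10938 with BFA, 9, 6 and 6349 with EHT-1864, and 18, 14 and 7816 between the compounds. Array signal limits what can be said of Dnajb2, Derl3, Srp9, Ubxn4 and Dnajb14, which were near or below the floor on some arrays.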
